A study of Mus musculus with 3 samples.

Results

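Solute carriers are the membrane proteins that move sugars, amino acids, ions, metals, vitamins and nucleotides across the plasma membrane and the membranes of organelles. Their genes were taken as every row of the deposited table whose symbol starts with Slc, a family number, the letter a and a member number. The rule found 255 of 15311 rows. By name, 250 of these are carriers in 46 families. The other 5 are named after a carrier without being one (Slc2a4rg-ps, Slc4a1ap, Slc7a6os, Slc9a3r1 and Slc9a3r2) and were counted as rows of the set but kept apart from the substrate groups.

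RNA-seq was made from mouse embryonic stem (ES) cells that carry a transgene for H2A.Z, a variant of histone H2A, with a yellow fluorescent protein (YFP) tag. In the wild-type group (2 libraries) the transgene encodes unaltered H2A.Z, and in the K3R3 group (1 library) its C-terminal lysines K119, K120 and K123 are replaced by arginine. Both groups also share the lentiviral delivery of the transgene, its CMV promoter under an rtTA drug-inducible system, induction with doxycycline at 1 µg/ml, sorting of YFP-positive cells, and a lentiviral hairpin against the 3′ untranslated region of endogenous H2A.Z selected with blasticidin. The strain label names V6.5 (129SvJaexC57BL/6) cells, whereas the treatment protocol says that KH2 ES cells were infected. The protocols do not say which of the listed hairpins was used, or whether a line is 1 clone. Cells were grown with LIF and serum on irradiated mouse embryonic fibroblasts, which were left out for the final passage. The labels give no culture of origin for either wild-type library, and K3R3 has 1 library, so a p-value here reflects the spread of these samples alone and that spread may be technical.

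Solute carriers work as uniporters, as cotransporters that use the gradient of another ion, or as exchangers. Numbered families share ancestry and usually a class of substrate: Slc2 holds facilitative glucose transporters, Slc7 amino acid exchangers, Slc6 sodium- and chloride-dependent transporters of neurotransmitters and amino acids, and Slc25 the carriers of the inner mitochondrial membrane. Pluripotent cells take up much glucose and glutamine, whereas many transporters of neurons, kidney and gut are nearly silent in them. A number of these silent genes have promoters with an activating histone mark and a Polycomb mark at once. Such genes are called bivalent, and the deposited table marks each gene as bivalent or active with a code taken, per the file header, from an earlier study. Among the solute carrier rows 41 were bivalent, 181 were active and 33 had neither code.

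The short stretches below come from promoters of genes on which the results turn, and were not chosen as typical of their classes. Each is the 30 bases just before the 5′-most listed start of the gene, read 5′ to 3′ on the strand of the gene from RefSeq on GRCm38.p6, which is another build than the mm9 of the counts, with each CG dinucleotide in capitals. Slc4a4 and Slc6a11 are bivalent, Slc2a1 is active and Slc24a1 has no class code.
Slc4a4, chr5:88887230-88887259, plus strand: gCGaaagCGgCGgCGgCGgcagCGgCGgCG
Slc6a11, chr6:114131211-114131240, plus strand: caaaagccCGggCGccCGgggCGgCGgCGc
Slc2a1, chr4:119108715-119108744, plus strand: tccccaggcccCGcccccttCGggcccacc
Slc24a1, chr9:64951621-64951650, minus strand: attggatctgCGtcccctgacatgcccttc
The stretches hold 8, 6, 2 and 1 CG dinucleotides in that order. In the wider window of 300 bases, 250 before the start and 50 after it, the same promoters hold 50, 32, 18 and 6. Across solute carriers with such a window the median was 22 in bivalent ones, 18.5 in active ones and 4 in those without a class. In all genes of these classes it was 23, 21 and 5. Slc6a15, described below, is named without a promoter.

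The 3 libraries held 21614693 and 25426228 counts for wild-type replicates 1 and 2 and 24718223 for K3R3. A chi-square over genes between the wild-type replicates gave 24.3 per degree of freedom, above what counting error alone gives, so both were kept as separate samples. H2afz, which encodes H2A.Z, was at 219, 232 and 222 CPM (counts scaled to library size) in the same order, but the transgene can add reads to this row and the hairpin is in both groups, so the level does not check the labels. All 10 ES cell markers had rows. Their summed level was 6276, 5236 and 4138 CPM in that order, and 4 of them (Dppa5a, Klf4, Sox2 and Tbx3) passed the test below as lower. With DESeq2, another test, 1 of them was lower. By CPM 7 lay below both wild-type libraries, 2 between them and 1 (Nanog) above both. Primitive endoderm markers summed to 478, 386 and 204 CPM, with 4 of 8 tested genes lower (Col4a1, Cubn, Gata6 and Lama1). DESeq2 called 2 of the 8 lower. Among the 8, 6 lay below both wild-type libraries and 2 (Sox7 and Sox17) between them. Amn, which was not tested, had 3, 3 and 14 counts. Fibroblast markers summed to 82.7, 107 and 115 CPM, with Postn, Lum and Fap absent from the rows and 1 of 9 higher (Thy1). Neuron markers summed to 354, 247 and 218 CPM and trophoblast markers to 70.4, 51.5 and 50.1 CPM. Most of these sums came from Stmn2 (341, 236 and 202 CPM) and Tfap2c (59.9, 44.5 and 41.1 CPM). The median log2 difference was 0.48 over 5 neuron markers, of which 3 lay above both wild-type libraries, and -0.30 over 5 trophoblast markers, of which 2 did. None of either list passed, with 1 and 2 higher and 1 and 0 lower at an unadjusted edgeR p under 0.05 and 0 called by DESeq2.

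ES cells of this study expressed a broad but uneven set of solute carriers. By RPKM, which divides counts by gene length and by a library total and so allows levels of genes to be compared, 51 solute carrier rows had a mean of at least 10, 99 lay between 1 and 10, and 105 lay below 1. The share below 1 RPKM was 41.2%, against 31.1% of all rows. It differed by class. Among bivalent solute carriers 73.2% were below 1 RPKM (66.5% of all bivalent genes), and 1 of them reached 10 RPKM. Among active ones 25.4% were below 1 RPKM (19.1% of all active genes), and 50 reached 10 RPKM. In all, the solute carriers made up 1.01% and 0.999% of the summed RPKM in wild-type replicates 1 and 2 and 1.05% in K3R3.

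The most abundant carriers serve energy metabolism and growth. Slc25a3, the mitochondrial phosphate carrier, stood at 315 and 287 RPKM in wild-type replicates 1 and 2 and at 299 RPKM in K3R3. Slc25a5, an ADP/ATP exchanger of the inner mitochondrial membrane, stood at 308, 289 and 276 RPKM. Slc2a3, the high-affinity glucose transporter GLUT3, stood at 211, 216 and 316 RPKM. Of these, only for Slc2a3 did the K3R3 library lie above both wild-type libraries. Slc38a2, a sodium-coupled transporter of small neutral amino acids, followed with 143, 132 and 130 RPKM, and 14 rows in all had a mean of at least 40 RPKM. Adenine nucleotide and phosphate carriers belong to a family with near-identical copies, so their counts are uncertain to the extent that reads could be split.

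**Figure D1:**
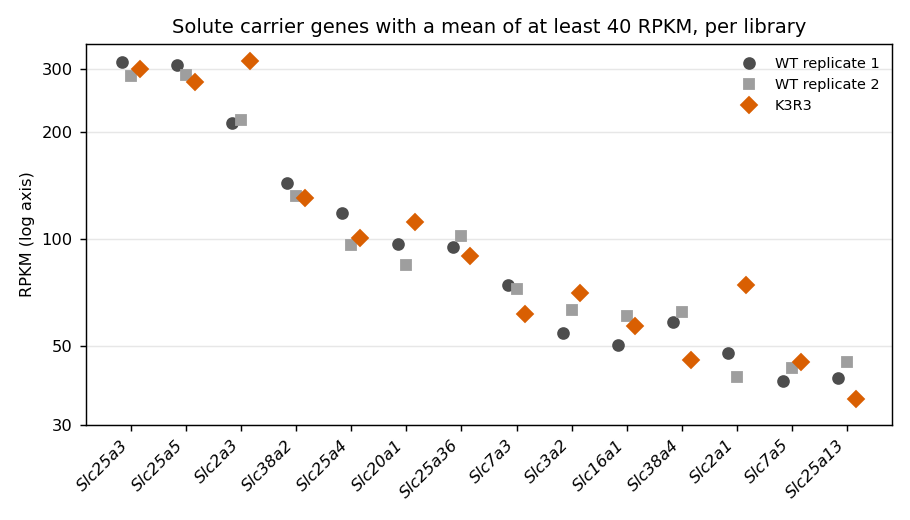
Deposited RPKM (log axis) of the 14 solute carrier genes with a mean of at least 40 RPKM, with 1 point for each wild-type library and 1 for the K3R3 library. The K3R3 point lies above both wild-type points for Slc2a3, Slc2a1, Slc20a1, Slc3a2 and Slc7a5, below both for Slc25a5, Slc38a2, Slc25a36, Slc7a3, Slc38a4 and Slc25a13, and between them for Slc25a3, Slc25a4 and Slc16a1.

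Whether the K3R3 form changed solute carrier transcripts was tested with edgeR's quasi-likelihood test over the 13829 genes whose mean reached 0.5 CPM, with Benjamini-Hochberg adjustment at 0.05. The test could be run for 222 solute carriers, namely 34 bivalent, 169 active and 19 without a class. The other 33 had a mean of at most 0.479 CPM and at most 32 counts in any library. Of the 222, 5 were higher in K3R3, among them Slc6a11, Slc4a4, Slc24a1 and Slc6a15, and 1 was lower. That is 2.25% higher, and in all genes tested 2.02% were higher and 0.542% were lower, so the share of solute carriers called lay near the background. At an unadjusted p under 0.05 the counts were 28 higher and 9 lower, against 1092 and 460 in all genes. Under DESeq2, 0 solute carriers were higher and 1 was lower after adjustment, against 33 and 26 in all genes. At an unadjusted DESeq2 p under 0.05 the counts were 10 higher and 5 lower, against 515 and 293 in all genes. In bulk RNA a change in the number of cells of a type and a change of RNA per cell cannot be told apart. Summed over each list, the ES cell and primitive endoderm markers lay lower in the K3R3 library, though not every gene did, as given above. Their part in these results was not tested.

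Slc6a11, a sodium- and chloride-dependent transporter of the neurotransmitter GABA, is bivalent and rose in K3R3. It had 2 and 4 counts in wild-type replicates 1 and 2 and 36 counts in K3R3, or 0.0151, 0.0259 and 0.240 RPKM. Scaled by library size, K3R3 stood to pooled wild type in a ratio of 10.6, with an exact 95% interval of 4.41 to 30.7, which covers counting error only. The fitted log2 change was 3.36 (SE 1.00, edgeR quasi-likelihood adjusted p = 0.0365). This gene reached the minimum level for testing only through the K3R3 library, since its wild-type mean was 0.128 CPM. It is 1 of 10 tested solute carriers of which that holds.

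Slc4a4, the electrogenic sodium bicarbonate cotransporter, is bivalent too and rose, with 58 and 139 counts in wild-type replicates 1 and 2 and 337 in K3R3, or 0.237, 0.488 and 1.22 RPKM. Its fitted log2 change was 1.62 (SE 0.39, edgeR quasi-likelihood adjusted p = 0.00289), with 2.21 against replicate 1 and 1.20 against replicate 2.

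The genes that rose outside the bivalent class were Slc24a1 and Slc6a15. Slc24a1, which exchanges sodium for calcium and potassium and is best known from rod photoreceptors, has no class code. Its counts were 75, 141 and 349 in the same order, or 0.441, 0.712 and 1.82 RPKM, with a fitted log2 change of 1.53 (SE 0.38, edgeR quasi-likelihood adjusted p = 0.00511). Slc6a15, a transporter of branched-chain and other neutral amino acids known mainly from neurons, is active. Its wild-type libraries were close to each other at 262 and 263 counts, against 622 in K3R3, or 2.20, 1.90 and 4.63 RPKM. The fitted log2 change of Slc6a15 was 1.05 (SE 0.32, edgeR quasi-likelihood adjusted p = 0.0462). It was the smallest of the 5 rises and was not called with relative log expression scaling (edgeR adjusted p = 0.0508), without a low-count filter (0.0580) or with the likelihood ratio test (0.0572). DESeq2 gave adjusted p-values of 0.269 for Slc4a4, 0.234 for Slc24a1, 0.31 for Slc6a15 and 0.818 for Slc6a11, so none of these 4 passed there.

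**Figure D2:**
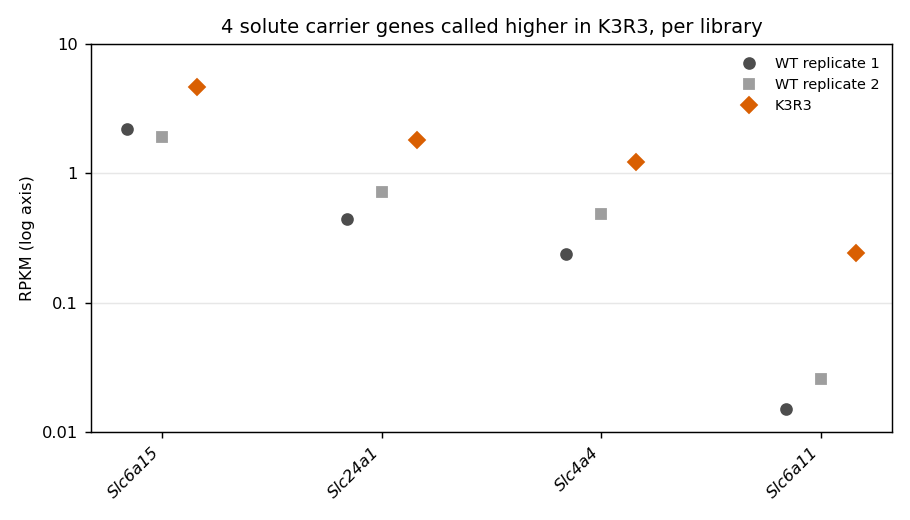
RPKM (log axis) in each of the 3 libraries for 4 solute carrier genes that passed the test as higher. The K3R3 point lies above both wild-type points for Slc6a11, Slc4a4, Slc24a1 and Slc6a15.

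A rule of size without a test found 4 of the 6 called genes and 1 more. Among 199 solute carriers whose mean reached 1 CPM, 4 had a level (CPM + 1) in K3R3 at least 2-fold above each wild-type library (2.1% of all genes) and 1 had one at least 2-fold below (0.172% of all genes). Slc24a1, Slc4a4 and Slc38a3 were among the 4. Slc38a3, a glutamine transporter of liver and brain and a bivalent gene, stood at 0.551, 0.685 and 1.84 RPKM, with a fitted log2 difference of 1.45 (SE 0.46) and an edgeR quasi-likelihood adjusted p of 0.0597. By the authors' deposited table, 17 solute carriers had an unadjusted p under 0.05, of which 14 were above both wild-type libraries in K3R3 and 3 were below both. All 6 genes called by the test here were among these 17, and both tests rest on the same libraries. The share of all genes under that p is not given here, so the 17 cannot be set against a background.

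Calls were then counted by class. Of the 34 bivalent solute carriers tested, 3 were higher (8.82%), among them Slc4a4 and Slc6a11, and 1 was lower, beside 10.5% higher and 0.539% lower in all bivalent genes tested. Of the 169 active ones, 1 was higher (Slc6a15; 0.59%) and 0 were lower, beside 0.838% higher and 0.473% lower in all active genes. At an unadjusted p under 0.05, 14 active solute carriers were higher and 7 lower by edgeR, and DESeq2 gave 0 lower after adjustment. Of all 10984 active genes tested, 480 were higher and 373 lower at that unadjusted edgeR p. The shares called higher in these 2 classes lay near those of all genes of the class, whereas the 1 bivalent gene called lower is 2.94% of 34. Among the 19 without a class, 1 was higher (Slc24a1) and 0 were lower, where 1.11% and 1.19% of all genes of that kind were. At an unadjusted edgeR p under 0.05 these 19 gave 4 higher and 1 lower, and the 1174 of that kind gave 84 and 62.

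Like bivalent genes in general, most bivalent solute carriers lay to the side of higher values in K3R3. Their median fitted log2 difference was 0.77 (quartiles 0.33 and 1.31), against 0.65 (0.15 and 1.24) in all bivalent genes. Active solute carriers had a median of -0.02 (-0.21 and 0.23), against -0.04 (-0.20 and 0.15). In 28 of the 34 bivalent solute carriers the K3R3 library lay above both wild-type libraries (82.4%; 72.9% of all bivalent genes) and in 2 it lay below both (10.5% of all bivalent genes). Of the 34, 4 (Slc1a6, Slc47a2, Slc6a11 and Slc7a14) had a wild-type mean under 0.5 CPM, were tested only through K3R3 and so had to lie above the wild-type mean. Without them 24 of 30 lay above both and the median was 0.56, where all bivalent genes held to the same wild-type minimum had 70.1% above both and a median of 0.56. That minimum was chosen after seeing the data, and it cannot remove a gene that was lower in K3R3. In the 169 active ones, 57 lay above both (27.8% of all active genes), 56 below both (37.9% of all active genes) and 56 between. Over all 222, 91 lay above both (33.9% of all genes) and 63 below both (34.2%). The 4 bivalent solute carriers between the wild-type libraries were Slc13a5, Slc22a17, Slc2a13 and Slc5a1.

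**Figure D3:**
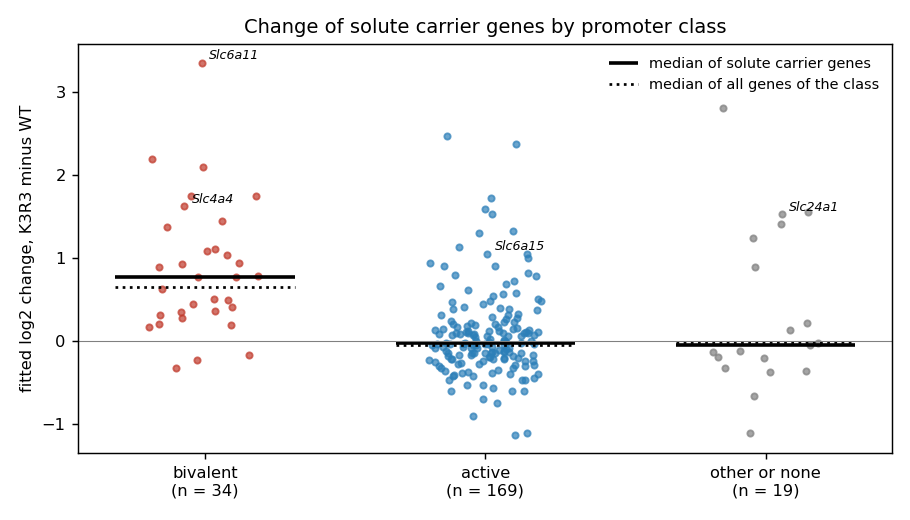
Fitted log2 difference, K3R3 minus wild type, of each solute carrier gene tested, by class, beside all genes tested of the same class. The 34 bivalent solute carriers have a median of 0.77 and the 169 active ones a median of -0.02, with all genes tested in the medians and 2 not drawn.

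The wild-type libraries also differed from each other in the bivalent solute carriers. Their median was 0.93 against replicate 1 alone and 0.64 against replicate 2 alone, and replicate 2 lay 0.18 above replicate 1. For all bivalent genes these values were 0.69, 0.63 and 0.05. On the RPKM scale the median bivalent solute carrier stood at 0.26 and 0.30 in wild type and at 0.65 in K3R3, and the median active one at 2.99, 2.80 and 3.47. For all genes these medians were 0.34, 0.36 and 0.68 (bivalent) and 6.05, 6.09 and 6.49 (active). Values in RPKM carry the scaling described below, which moved the all-gene median log2 difference up by 0.12. Level and class move together, so genes of like level were set side by side. Of bivalent genes with a mean of 0.5 to 2 CPM, the 14 solute carriers had a median log2 difference of 0.91 and all genes 1.05. With 2 to 10 CPM these were 0.79 for 15 solute carriers and 0.67 for all, and with 10 to 100 CPM 0.35 for 5 solute carriers and 0.22 for all. In the active class the 16 solute carriers of 0.5 to 2 CPM had a median of 1.095 and all genes 0.40, whereas the 26 of at least 100 CPM had -0.15 and all genes -0.13. In the lowest bin 4 of the 14 bivalent and 4 of the 16 active solute carriers had a wild-type mean under 0.5 CPM. Without such genes the medians there were 0.59 for 10 bivalent solute carriers and 0.84 for all bivalent genes, and 0.38 for 12 active ones and 0.27 for all active genes.

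Substrate groups were defined by family number and describe where in transport physiology the differences lay. Group medians ran from -0.09 to 0.61. At an unadjusted edgeR p under 0.05, 1092 of all 13829 genes tested were higher and 460 were lower. These are the background for the unadjusted counts of each group and list below. In each group, the bivalent members had a higher median than the active members wherever both were tested. The bivalent side held only 1 to 6 tested genes in a group, among them the 4 named above that were tested only through K3R3. All bivalent genes likewise had a higher median than all active genes (0.65 and -0.04), so this order is not particular to solute carriers.

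**Figure D4:**
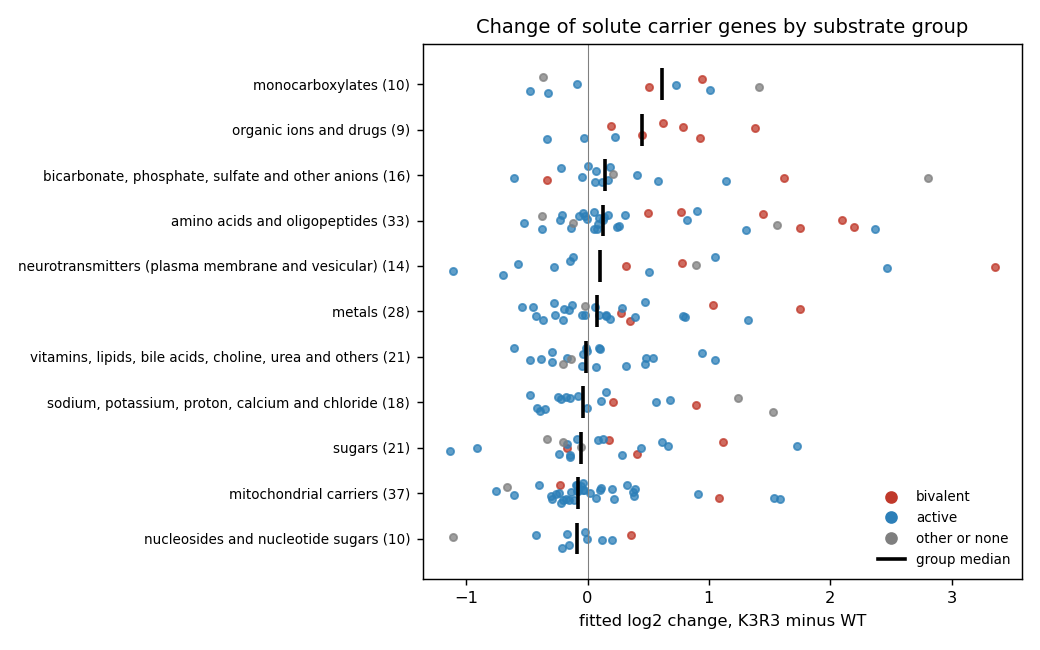
Fitted log2 difference, K3R3 minus wild type, of each solute carrier gene tested in 11 substrate groups, with class marked by colour and the median of each group. Of the 34 bivalent genes tested 30 had a value above 0 (88.2%; 81.6% of all bivalent genes). Among those with a wild-type mean of at least 0.5 CPM it was 26 of 30 (86.7%; 79.6% of all bivalent genes held to that minimum). Medians are over all genes tested, of which 2 are not drawn.

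Slc6a11 and Slc6a15 belong to the neurotransmitter transporters as grouped here. Of these, 14 were tested, and their median log2 difference was 0.10. Slc6a2, the bivalent noradrenaline transporter, was below the minimum level for testing with 1, 4 and 32 counts, a ratio of 11.3 (exact 95% interval 4.36 to 37.1, counting error only). Slc6a3, the dopamine transporter, had 4, 9 and 41 counts and did not pass (edgeR quasi-likelihood adjusted p = 0.115), and with a wild-type mean of 0.276 CPM it was tested only through K3R3. Both genes were picked by their values, so their shared direction is a description. The 2 most abundant members were not called. Slc6a6, the taurine transporter, stood at 20.4, 20.98 and 18.6 RPKM, and Slc6a8, the creatine transporter, at 18.2, 13.3 and 11.5 RPKM, with fitted log2 differences of -0.27 and -0.57. Slc6a9, a glycine transporter, stood at 0.562, 0.868 and 1.11 RPKM.

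Slc6a15, an amino acid transporter called higher, was placed with the rest of Slc6 among the neurotransmitter transporters. The group of amino acid and oligopeptide carriers, which leaves out the Slc6 family, gave no call. Of 33 tested, 0 passed after adjustment by edgeR and 0 by DESeq2, and 8 were higher and 1 was lower at an unadjusted edgeR p under 0.05. The median was 0.13, with K3R3 above both wild-type libraries in 19 and below both in 7. All 6 bivalent members (Slc1a1, Slc1a6, Slc38a3, Slc7a2, Slc7a8 and Slc7a14) lay above both, with fitted log2 differences of 0.50 to 2.20, against a median of 0.08 in the 24 active ones. These bivalent genes were named after their values were seen. Slc1a6 and Slc7a14, at the upper end of that range with 2.09 and 2.20, had wild-type means of 0.421 and 0.330 CPM and were tested only through the K3R3 library, so they had to lie above the wild-type mean. Slc7a8, the neutral amino acid exchanger LAT2, stood at 0.258, 0.124 and 0.700 RPKM (fitted log2 difference 1.75, edgeR quasi-likelihood adjusted p = 0.0802). Slc1a6, the glutamate transporter EAAT4, stood at 0.0733, 0.189 and 0.624 RPKM (2.09, edgeR quasi-likelihood adjusted p = 0.175). Slc1a1, the glutamate transporter EAAT3, was the more abundant, at 0.859, 0.773 and 1.51 RPKM. Slc7a14, a lysosomal member, had 2, 14 and 41 counts, a ratio of 4.51 (exact 95% interval 2.48 to 8.61, counting error only). None of the 6 passed the test.

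The amino acid carriers on a list of nutrient carriers of proliferating stem cells differed little, and none passed. Slc3a2, the heavy chain that brings Slc7 light chains to the membrane, stood at 54.4, 63.2 and 70.2 RPKM, and its light chain Slc7a5 (LAT1) at 39.9, 43.2 and 45.04 RPKM. Slc7a3, a cationic amino acid transporter, stood at 74.2, 72.4 and 61.5 RPKM, and Slc7a1, another, at 13.2, 14.6 and 12.96 RPKM. K3R3 lay below both wild-type libraries for Slc7a3 (log2 difference -0.38) and for Slc7a1 (-0.23), and neither passed. Slc1a5, the glutamine exchanger ASCT2, stood at 21.02, 28.9 and 28.7 RPKM, and its relative Slc1a4 at 7.89, 9.10 and 8.41 RPKM. Slc7a11, the cystine/glutamate exchanger, stood at 2.72, 1.76 and 2.25 RPKM. In these 3 genes the K3R3 level lay between the wild-type levels by RPKM, and for Slc1a4 below both by CPM. Slc38a4, an imprinted gene for a neutral amino acid transporter, was named after its values were seen, at 58.4, 62.2 and 45.6 RPKM (-0.53, edgeR quasi-likelihood adjusted p = 0.125).

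In the sugar transporters 0 of 21 passed in either direction, with 3 higher and 1 lower at an unadjusted edgeR p under 0.05, and DESeq2 also gave 0 after adjustment. The median was -0.05, yet the abundant glucose transporters lay higher. Slc2a1, the widely expressed glucose transporter GLUT1, stood at 47.8 and 40.9 RPKM in wild type and 74.1 RPKM in K3R3. K3R3 lay above both, and the fitted log2 difference was 0.62 (SE 0.19, edgeR quasi-likelihood adjusted p = 0.0510), just short of the threshold. Slc2a3 had a fitted log2 difference of 0.44 (SE 0.16, edgeR quasi-likelihood adjusted p = 0.119). With library totals implied by the deposited RPKM both were called higher, with 0.74 and 0.57 (edgeR quasi-likelihood adjusted p = 0.00988 and 0.0215), whereas DESeq2 gave adjusted p-values of 0.371 and 0.68. The summed RPKM of the sugar group was 289 and 288 in wild type and 423 in K3R3. Most of each sum came from Slc2a3 and Slc2a1, so it does not describe the group as a whole.

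The 10 tested monocarboxylate carriers had a median of 0.61 (quartiles -0.27 and 0.99), the highest of the substrate groups. Against wild-type replicate 1 alone the median was 1.00. Against replicate 2 alone it was 0.31, below the 0.54 of the organic ion and drug carriers. The lactate and pyruvate transporter Slc16a1 (MCT1) stood at 50.3, 60.6 and 56.9 RPKM, with K3R3 between the wild-type libraries. Slc16a3 (MCT4), which exports lactate, stood at 2.57, 1.65 and 1.83 RPKM. Slc16a6 was the second most abundant of the group at 2.83, 2.38 and 2.04 RPKM. Over the list of 13 glucose, lactate and amino acid carriers of proliferating stem cells, 0 were called in either direction by edgeR or by DESeq2, with 2 higher (Slc2a1 and Slc2a3) and 0 lower at an unadjusted p under 0.05 in both, and a median of -0.09.

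Mitochondrial carriers had a median of -0.08 over 37 tested, with 0 called by edgeR or DESeq2 and 3 higher and 3 lower at an unadjusted edgeR p under 0.05. K3R3 lay above both wild-type libraries in 10 and below both in 15. Their summed RPKM was 1106 and 1051 in wild type and 1037 in K3R3. The ADP/ATP exchangers differed among themselves: the abundant Slc25a5 had a log2 difference of -0.24, whereas Slc25a31, a bivalent gene expressed in germ cells, stood at 1.07, 0.835 and 2.20 RPKM with a log2 difference of 1.08. Slc25a24, a calcium-regulated carrier of ATP-magnesium and phosphate, stood at 2.98, 2.22 and 5.33 RPKM (0.91, edgeR quasi-likelihood adjusted p = 0.102). Slc25a33, a pyrimidine nucleotide carrier, was the 1 bivalent solute carrier of at least 10 RPKM, at 10.8, 13.6 and 11.3 RPKM. Slc25a31, Slc25a24 and Slc25a33 were named after their values were seen, and none passed.

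Among 16 tested carriers of bicarbonate, phosphate, sulfate and other anions, 1 was higher (Slc4a4) and 0 were lower, with 2 and 0 at an unadjusted edgeR p under 0.05 and a median of 0.14. Slc20a1, a sodium-dependent phosphate transporter, was the most abundant at 96.9, 84.4 and 111 RPKM, and Slc4a7, a sodium bicarbonate cotransporter, followed at 20.6, 26.6 and 26.7 RPKM. Neither passed. Slc4a1, the anion exchanger of red blood cells, had 3, 8 and 44 counts, a ratio of 7.04 (exact 95% interval 3.58 to 15.1, counting error only) and a fitted log2 difference of 2.81 (edgeR quasi-likelihood adjusted p = 0.0555), and was named after its values were seen. It has no class code, and it passed the minimum level only through K3R3.

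Of the 18 tested carriers of sodium, potassium, protons, calcium and chloride, 1 was higher (Slc24a1) and 0 were lower, with 2 and 0 at an unadjusted edgeR p under 0.05 and a median of -0.04. The cation-chloride cotransporters Slc12a7 and Slc12a2 led the group in level, with 13.7, 12.8 and 10.8 RPKM for the former and 11.8, 10.5 and 11.5 RPKM for the latter. K3R3 lay below both wild-type libraries for Slc12a7 and between them for Slc12a2, and neither passed. Stk39, a kinase that phosphorylates Slc12 cotransporters, was called higher by edgeR, with 14.2 and 10.5 CPM in the wild-type libraries and 25.97 CPM in K3R3 (log2 change 1.07, SE 0.32, edgeR quasi-likelihood adjusted p = 0.0352), but not by DESeq2. It was the 1 gene called (6.25%, beside 2.02% of all genes) among 16 partners and gradient-forming pumps of solute carriers, and 0 were lower, with 2 higher and 3 lower at an unadjusted edgeR p under 0.05. The median of that list was -0.20.

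Metal carriers, which include the Slc30 zinc exporters and the Slc39 zinc importers, had a median of 0.08 over 28 tested, with 0 called by edgeR or DESeq2 and 3 higher and 0 lower at an unadjusted edgeR p under 0.05. The most abundant were Slc39a10 at 26.2, 23.5 and 22.5 RPKM and Slc30a9 at 22.2, 25.9 and 23.6 RPKM. The 4 bivalent metal carriers (Slc39a8, Slc30a3, Slc30a4 and Slc41a2) lay above both wild-type libraries, with a median of 0.69. Slc39a8, a zinc and manganese importer, stood at 0.823, 1.68 and 2.79 RPKM (1.03, edgeR quasi-likelihood adjusted p = 0.109). Slc30a3, which loads zinc into synaptic vesicles, stood at 0.199, 0.184 and 0.705 RPKM (1.75, edgeR quasi-likelihood adjusted p = 0.280). These 4 names were chosen after seeing the values.

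The last 3 groups had no call by edgeR or DESeq2. In the 9 tested carriers of organic ions and drugs the median was 0.45, 6 were bivalent and 5 of those lay above both wild-type libraries, among them Slc47a2, which was tested only through K3R3. At an unadjusted edgeR p under 0.05, 0 of these 9 were higher and 0 lower. Slc22a5, the carnitine transporter, stood at 2.46, 3.09 and 2.40 RPKM, and Slc22a23 at 1.02, 1.52 and 1.89 RPKM. In the 10 tested nucleoside and nucleotide sugar carriers the median was -0.09 and 0 were higher and 1 lower at an unadjusted edgeR p under 0.05. That gene was Slc28a1, a sodium-coupled nucleoside transporter named after its values were seen, at 4.51, 3.45 and 2.01 RPKM (-1.11, edgeR quasi-likelihood adjusted p = 0.0656). Slc29a1, the equilibrative nucleoside transporter ENT1, varied between the wild-type libraries, 50.2 and 29.2 RPKM, around the K3R3 value of 39.1 RPKM. Slc35a1, which carries CMP-sialic acid into the Golgi, stood at 13.02, 16.1 and 14.1 RPKM. In the 21 tested carriers of vitamins, lipids, bile acids, choline, urea and others the median was -0.02 and 0 were higher and 1 lower at an unadjusted edgeR p under 0.05. The thiamine transporter Slc19a2 stood at 24.9, 20.02 and 18.7 RPKM and the choline transporter Slc44a1 at 15.7, 17.05 and 12.8 RPKM, with K3R3 below both wild-type libraries for each.

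Scaling set the sign of the smaller medians. With library totals implied by the deposited RPKM the median of all genes moved from -0.01 to 0.11, a shift of 0.12, and the 5 group medians below 0 turned positive (0.04 to 0.11). Under that scaling 12 solute carriers were higher (5.41%; 3.37% of all genes) and 1 was lower. The 7 added were Slc2a1, Slc2a3, Slc25a24, Slc38a3, Slc39a8, Slc4a1 and Slc7a8. On the deposited RPKM values themselves, 116 of the 222 lay above both wild-type libraries and 40 below both, where 48.7% of all genes lay above both.

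Carriers whose symbols fall outside the naming rule were counted for comparison, among them the Slco, Mfsd, sideroflexin and Slc35b to Slc35f genes. Of 47 tested, 5 were higher (10.6%, beside 2.02% of all genes) and 0 were lower, with 8 higher and 1 lower at an unadjusted edgeR p under 0.05, and their median was 0.02. With DESeq2 0 of the 47 were called, and 5 higher and 0 lower had an unadjusted p under 0.05. The 5 called by edgeR were bivalent, and of all bivalent genes tested 10.5% were higher. The 47 span all classes, so their 10.6% is not the like of that share. The only other bivalent genes tested in this list were Mfsd4, Slc35d3, Slc35f3, Slco2a1 and Spns2. The share called among its bivalent genes thus lay above 10.5%. The counts of Slc35f1 were 21, 25 and 167 (log2 change 2.67, SE 0.53, edgeR quasi-likelihood adjusted p = 0.000144). Slco3a1 and Slco5a1, of the organic anion transporter family, and Mfsd6 changed by 1.51, 1.20 and 1.30 on the log2 scale. The fifth gene called was Mfsd2a, which carries lysophosphatidylcholine into the brain. Mfsd2a stood at 0.143 and 0.403 CPM in wild type and at 2.77 CPM in K3R3, so it was tested only through K3R3.

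Promoter sequence was described by class. In the windows of 300 bases the ratio of observed to expected CG dinucleotides had a median of 0.74 in the 33 of 41 bivalent solute carriers that matched an entry, and of 0.74 in all bivalent genes. It was 0.66 in the 136 of 181 active ones, against 0.77 in all active genes, and 0.23 in the 23 of 33 without a class. A ratio of at least 0.6, a usual criterion for a CpG island, was met by 72.7%, 61.8% and 8.70% in that order, and by 71.2%, 74.0% and 19.2% of all genes of the same classes. These shares are a description without a test. The 5′-most listed start need not be the one used in ES cells. With the window of the highest ratio for each gene, an alternative chosen after seeing the data, the medians were 0.74, 0.68 and 0.26 for the solute carriers and 0.77, 0.79 and 0.28 for all genes. Of the genes shown above, Slc4a4 had a ratio of 1.06, Slc6a11 0.82, Slc2a1 0.60 and Slc24a1 0.31.

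**Figure D5:**
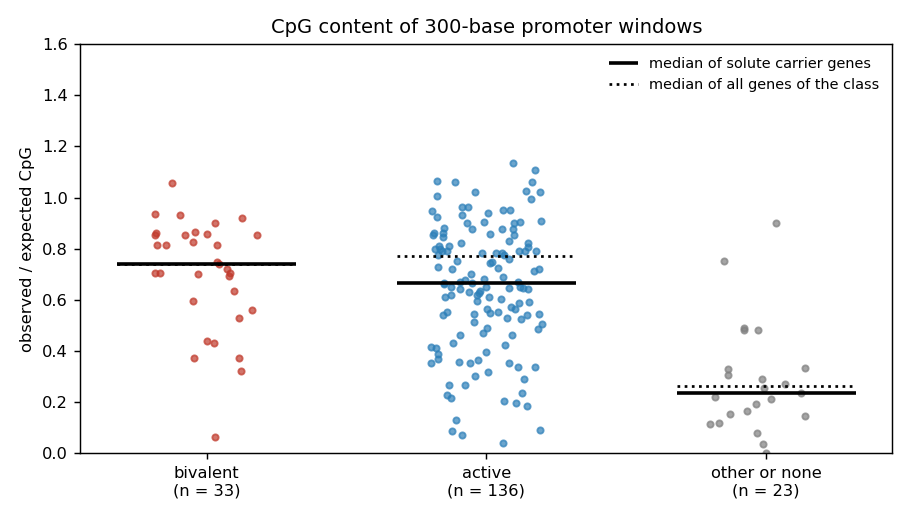
Ratio of observed to expected CG dinucleotides in promoter windows of 300 bases for solute carrier genes of each class, beside all genes of the class. The medians of the solute carriers are 0.74 (bivalent), 0.66 (active) and 0.23 (no class code).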

How the data were processed

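The authors deposited whole-number read counts for each gene, and the submitters' processing notes name HTSeq 0.5.4p1 and build mm9. Aligner, annotation and strand setting: not given in the sources used here. RPKM values were also deposited by the authors. The authors' deposited table further gives a fold ratio, that ratio as log2, and a p-value without adjustment, and the submitters' processing notes name DESeq 1.10.1. Its header sets K3R3 against wild type, but by its values the ratio is wild type over K3R3. Directions were therefore taken from the counts, and all of them hold only if the count columns carry the right names. Rows with a count of 0 in any library were not among the 15311.

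The counts went into edgeR 4.0.16 under R 4.3.3 (two-sided quasi-likelihood test, TMM scaling, mean of at least 0.5 CPM, Benjamini-Hochberg adjustment at 0.05 over all genes tested). The spread comes from the 2 wild-type libraries, and K3R3, with 1 library, was taken to vary as they do. The quasi-likelihood fit gave no weight to a gene's own spread (its prior degrees of freedom were infinite). Each SE and p-value of that test therefore rests on a spread pooled over genes, whether or not the wild-type libraries were close for that gene. A value against 1 replicate alone is a log2 CPM difference (prior count 1). DESeq2 1.42.0, other scalings, filters, a likelihood ratio test and the omission of each wild-type library were alternatives. Scripts were tested on simulated data. Promoters came from RefSeq on GRCm38.p6, where symbols of 252 of the 255 rows matched protein-coding genes. Members, lists and tests were chosen with earlier results of these data known. Genes named were those called, the 2 of highest mean RPKM in each substrate group, a list of 13 nutrient carriers, and those past the 2-fold rule. Any other is marked as named after its values were seen. Counts and medians are over all members, and 2 called members are not reported here by name.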

Additional observations from a re-analysis of the deposited data

How the results depend on the processing

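The count of solute carriers called lower was 1 under every alternative test, scaling and filter. The count called higher (5) was 0 with DESeq2, with 10 solute carriers higher at an unadjusted p under 0.05, and 12 with library totals implied by the deposited RPKM. For bivalent solute carriers (3) these counts were 0 and 6. For active ones (1) the count was 0 with DESeq2, 0 with relative log expression scaling, 0 without a filter, 2 with the likelihood ratio test (Slc6a3 and Slc7a4, not Slc6a15) and 4 with implied totals, while 14 or 15 were higher at an unadjusted p under 0.05 with relative log expression scaling and without a filter. The rule of 2-fold above both wild-type libraries gave 7 genes with CPM + 0.5 and 2 with CPM + 2 in place of 4. The median of all tested solute carriers turned to -0.017 with a minimum of 2 CPM. That of the active ones turned to 0.10 with implied totals, and to 0.0037 and 0.00033 without wild-type replicate 1 and 2. With a wild-type mean of at least 0.5 CPM, added after seeing the data, the bivalent median went from 0.77 to 0.56 and the active one from -0.022 to -0.031. Signs also turned for small differences. With implied totals these were Slc12a2 (0.049), Slc16a1 (0.038), Slc7a11 (0.0083) and Slc7a5 (0.12). Without 1 wild-type replicate the ranges were -0.17 to 0.025 for Slc12a2, -0.20 to 0.044 for Slc16a1, -0.62 to 0.038 for Slc16a3, -0.12 to 0.31 for Slc1a5, -0.49 to 0.30 for Slc29a1, -0.11 to 0.24 for Slc4a7, -0.41 to 0.24 for Slc7a11 and -0.053 to 0.040 for Slc7a5. The cause was not tested. No paired analysis was possible because the lone K3R3 library carries no replicate number. With 1 K3R3 library, no result has a replicate check on that side, and bivalent solute carriers with few counts are the least certain.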
